A study of Mus musculus with 23 samples.

Results

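Pan02 is a mouse pancreatic ductal adenocarcinoma line, and its tumors are described here against those of 4 other lines. The members are the 3 whole tumors whose cell line label reads Pan02, of 15 whole tumors and 23 libraries in all. The other lines were B16-F10 (melanoma), LL/2 (lung carcinoma), EO771.LMB (mammary carcinoma) and MC38 (colon carcinoma), with 3 tumors each, and they are called B16, LL2, EO771 and MC38. For each, 500000 cells had been injected under the skin of 1 or both flanks of adult female C57BL/6 mice, which received no treatment. Each library holds the poly(A) RNA of 1 fragment of a tumor taken at the endpoint, cancer cells and host cells together. A further 8 libraries, 2 per model for LL2, EO771, MC38 and Pan02, held cancer-associated fibroblasts (CAFs), meaning FAP+ cells from the CD45- part of the tumor, and are used as a description only. The model is a single line grown outside the pancreas, ulcerated tumors had been excluded, and the labels do not say whether tumors came from separate mice, so p-values measure the spread between these tumors. In such bulk RNA, fewer cells of a type and less RNA per cell cannot be told apart.

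Ductal cancer of the pancreas arises in an epithelium that carries keratins 7, 18 and 19 and, in its progenitor state, the factor Pdx1. It is known for a dense stroma in which fibroblasts lay down fibrillar collagen, fibronectin and tenascin, largely under TGF-beta. Type 2 immunity is the response that interleukin 4 and interleukin 13 drive through STAT6, and in mice it marks macrophages and epithelia with chitinase-like proteins (Chil3, Chil4), Retnla and Arg1.

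Values are CPM, counts relative to library size after TMM scaling. A gene was called when the adjusted p of edgeR's quasi-likelihood test (Benjamini-Hochberg) fell below 0.05 and the change was 1 or more on the log2 scale, up for higher and down for lower. The 3 Pan02 libraries held 15856333 to 21946495 counts and the other 12 held 10035180 to 20207567. Against the mean of the other 4 models 18.8% of the 15732 genes tested were called higher and 7.92% lower, with a median log2 fold change of 0.05 over all genes. Called against each of the 4 models separately were 5.96% of genes as higher and 1.50% as lower. Counts of list members called are to be read beside these shares. All 3 Pan02 tumors lay above all 12 others for 8.91% of genes and below them for 9.52%.

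The 4 marker genes of Pan02, chosen with earlier results of these tumors known, were all called higher, each against every other model. Chil4, a chitinase-like protein of type 2 inflammation, stood at 79.3, 916 and 2387 CPM in tumors 1, 2 and 3 and at 0.481 to 0.939 CPM in the other 12 (log2 fold change 10.65 ± 0.58 (SE), adjusted p = 9.1e-09). Slurp1, a secreted keratinocyte protein of the Ly6 family, stood at 25.7, 61.1 and 67.1 CPM against 0 to 0.125 CPM (log2 fold change 10.49 ± 0.42 (SE), adjusted p = 4.4e-09). Ehf, an ETS factor of glandular epithelia, stood at 183, 98.4 and 27.6 CPM against 0 to 0.491 CPM (log2 fold change 9.65 ± 0.49 (SE), adjusted p = 4.6e-09). These groups did not overlap, yet the tumors of Pan02 differed widely among themselves: tumor 1 was lowest for Chil4 and highest for Ehf. Col1a1, the main chain of type I collagen, stood at 26479.5, 25351 and 20314 CPM and at 178 to 5989 CPM elsewhere (log2 fold change 3.77 ± 0.40 (SE), adjusted p = 3.5e-06), and it was the marker with the narrowest relative spread between the 3 tumors. On mm10 these genes lie at chr3:106201491-106219479 (Chil4), chr15:74726644-74728026 (Slurp1), chr2:103263433-103303196 (Ehf) and chr11:94936224-94953042 (Col1a1), and their counts are over the exons of 1 transcript.

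Genes of glandular and ductal epithelium were among the largest rises. Of 585 genes higher than in each other model, above all 12 tumors and at a Pan02 mean of at least 10 CPM, the 12 with the largest change were Chil4, Slurp1, Ehf, Pdx1, S100g, Cldn2, Foxq1, Igf2, Igf2os, Krt7, Sytl5 and Lrrc26. Pdx1, the homeobox factor without which no pancreas forms, stood at 58.3, 45.2 and 26.2 CPM and at 0 to 0.149 CPM in the others (log2 fold change 9.16 ± 0.29 (SE), adjusted p = 1e-10). The label of a pancreatic line thus has its defining factor in all 3 tumors. Cldn2, which forms cation pores in leaky epithelia, stood at 406, 304 and 204 CPM against 0.241 to 1.31 CPM (log2 fold change 9.13 ± 0.22 (SE), adjusted p = 1.7e-11). Foxq1, a forkhead factor of gut and stomach epithelium, stood at 146, 117 and 61.4 CPM against 0 to 1.25 CPM (log2 fold change 9.09 ± 0.37 (SE), adjusted p = 6.9e-10), although 41.5% of its exon bases are shared with another gene on reads that carry no strand. S100g, the calcium carrier of absorptive epithelium, stood at 7.77, 18.4 and 8.94 CPM, and the other 12 tumors held 3 counts of it in all, a ratio per library size of 723 with an exact 95% interval of 246 to 3514 that covers counting error only. Igf2, a fetal growth factor that many tumors re-express, stood at 1647, 1002 and 838 CPM against 0.934 to 13.7 CPM (log2 fold change 8.78 ± 0.51 (SE), adjusted p = 1.5e-08). It shares 66.1% of its exon bases with its antisense gene Igf2os and another transcript, so the rise of Igf2os (49.6, 32.8 and 14.05 CPM against 0 to 0.204 CPM) cannot be told apart from reads of Igf2. Sytl5, of the vesicle-tethering synaptotagmin-like family, stood at 18.9, 12.7 and 5.702 CPM and Lrrc26, a potassium channel subunit of secretory epithelia, at 4.84, 22.6 and 15.5 CPM, against at most 0.144 and 0.187 CPM. Tumor 1 was the highest of the 3 for Ehf, Pdx1, Cldn2, Foxq1, Igf2, Igf2os and Sytl5, and tumor 3 was the lowest for each of these.

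**Figure D1:**
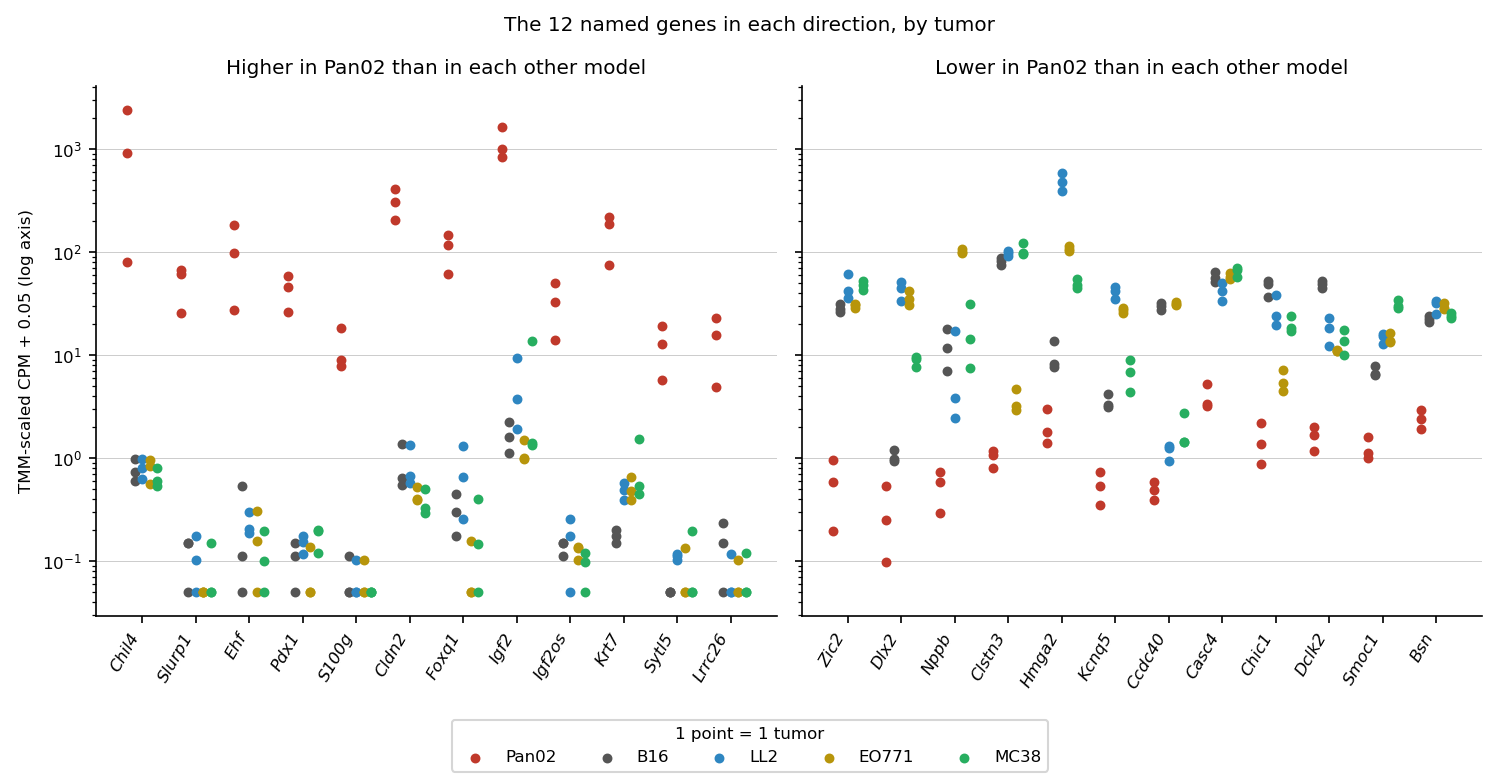
The 12 named genes with the largest change in each direction, with 1 point for each of the 15 tumors and TMM-scaled CPM plus 0.05 on a log axis. On the left every Pan02 point lies above all points of the other 4 models, and on the right every Pan02 point lies below them; Chil4 spans 79.3 to 2387 CPM within Pan02.

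Among 36 epithelial junction and regulator genes, 31 were tested, 22 were called higher (against 18.8% of all genes) and Grhl2 alone lower (against 7.92%), with a median log2 fold change of 2.54. Higher than in each model were 14 of the 31 (against 5.96% of all genes). Simple keratins led. Krt7 stood at 186, 219 and 74.7 CPM (log2 fold change 8.68 ± 0.30 (SE), adjusted p = 1.6e-10), Krt19 at 282, 489.5 and 277 CPM against 0.199 to 19.2 CPM (log2 fold change 7.84 ± 0.31 (SE), adjusted p = 5.4e-10), and Krt18 at 924, 1333 and 950.1 CPM against 1.35 to 431 CPM (log2 fold change 7.03 ± 0.17 (SE), adjusted p = 1.7e-11). These are the keratins of ductal cells. Cdh1 (E-cadherin) stood at 79.97, 210.3 and 237 CPM against 2.09 to 8.33 CPM and Cldn7 at 8.21, 8.23 and 5.64 CPM against 0 to 0.376 CPM. Epcam, a defining surface marker of most carcinomas, was only 1.07, 2.23 and 1.501 CPM, with 0.0998 to 3.88 CPM elsewhere (log2 fold change 1.62 ± 0.65 (SE), adjusted p = 0.043), and without tumor 2 it was not called (log2 fold change 1.31, adjusted p = 0.17). Grhl2, a factor that maintains epithelial state, fell with a log2 fold change of -3.50 (adjusted p = 0.00017) and was 0, 0.0675 and 0.06002 CPM, and Esrp1, the epithelial splicing regulator, was 0.0489, 0 and 0 CPM with 0 to 1.25 CPM elsewhere (log2 fold change -2.96, adjusted p = 0.094). Of 12 regulators and markers of mesenchymal transition, 5 were called higher, 3 without tumor 2 and 2 with total-count scaling, and N-cadherin (Cdh2) lower (3.47, 5.73 and 3.66 CPM, log2 fold change -1.60). Zeb1, which represses E-cadherin, was 52.2, 63.3 and 47.6 CPM within 4.22 to 76.04 CPM (log2 fold change 1.09, and 0.96 with no call without tumor 2), and Vim (vimentin) was not called (log2 fold change 0.14). Keratins, claudins and E-cadherin of a ductal epithelium were thus high in tumors that held hardly any Grhl2 or Esrp1 RNA. Esrp1 was also low elsewhere, at most 1.25 CPM. With a filter at 1 CPM on the mean, no gene of the epithelial list was called lower, Grhl2 included.

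Of 22 pancreatic duct and progenitor genes, 18 were tested, 9 were called higher (against 18.8% of all genes) and Nkx2-2 lower, with a median of 1.11. Bicc1, an RNA-binding protein of ducts, stood at 329, 215 and 194 CPM against 8.09 to 27.3 CPM (log2 fold change 4.19 ± 0.23 (SE), adjusted p = 9.2e-09), and Car2, the carbonic anhydrase of bicarbonate secretion, at 21.6, 42.6 and 47.1 CPM against 1.27 to 7.46 CPM (log2 fold change 3.44 ± 0.21 (SE), adjusted p = 2.3e-08). Foxa2 and Gata6, both factors of gut endoderm, passed against the mean (log2 fold changes 6.05 and 4.70) but not against each model: LL2 tumors reached 15.2 CPM of Foxa2 and 30.1 of Gata6. Sox9, the classic duct factor, stood at 217, 157 and 104 CPM within the 11.6 to 448 CPM of the others (log2 fold change 0.46, adjusted p = 0.18). Nkx2-2, which specifies islets, was at 0.0489, 0.202 and 0.06002 CPM with 0.187 to 12.1 CPM elsewhere (log2 fold change -4.75, adjusted p = 1.9e-07), and Ins2 was at 0 in all 15 tumors. Of 19 acinar and islet genes only 4 had enough counts to test, of which Chga, a granule protein of endocrine cells, was called (and not without tumor 3), and the summed level of the 19 of 8.31, 10.8 and 17.7 CPM lay inside the 6.94 to 30.0 CPM of the others. The ductal genes were accompanied by hardly any RNA of the digestive enzymes or hormones.

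Squamous and secretory genes were called higher in part, but their summed levels were not highest in Pan02. Of 36 squamous and keratinocyte genes, 20 were tested, 12 were called higher and Lypd3 lower, with a median of 2.57. Their sum was 185, 161 and 205 CPM, below the 346 to 425 CPM of EO771 and within the 27.8 to 223 CPM of LL2. Trp63, the master factor of squamous epithelium, stood at 55.1, 24.4 and 13.8 CPM against 0 to 1.88 CPM (log2 fold change 7.49 ± 0.56 (SE), adjusted p = 5.5e-07), and Sprr1a, a cornified envelope protein, at 42.1, 12.01 and 26.2 CPM against 0 to 6.64 CPM (log2 fold change 5.32 ± 0.47 (SE), adjusted p = 5.9e-07). The keratins of basal skin did not pass: Krt5 was 1.56, 0.337 and 0.1801 CPM (log2 fold change 2.67, adjusted p = 0.22) and Krt14 was 4.397, 0.607 and 9.06 CPM (log2 fold change 2.05, adjusted p = 0.13), although without LL2 tumor 3 both were called (log2 fold changes 3.89 and 3.24). The part of attached skin in the squamous values was not tested. Of 12 hair follicle keratin genes 10 had too few counts to test. The summed level of the 12 was 1.81, 1.82 and 3.24 CPM with up to 49.1 CPM in an LL2 tumor. Krt31 and Krt35 were at 0 in all 3 Pan02 tumors. Of 34 mucin, trefoil and secretory genes, 13 were tested and 9 were called higher, 7 of them at Pan02 means of 0.667 to 2.46 CPM. The others were Fcgbp, a mucus protein that binds IgG (0.782, 30.1 and 25.9 CPM against 0 to 2.48 CPM, log2 fold change 5.71 ± 0.76 (SE), adjusted p = 2.5e-05), and Wfdc2, a secreted protease inhibitor of ducts and airways (84.7, 77.99 and 23.8 CPM against 0.1496 to 219 CPM, log2 fold change 3.18 ± 0.30 (SE), adjusted p = 1e-06). Without a filter on low counts 14 were called, and after a filter at 1 CPM on the mean it was 3. The secretory genes summed to 124, 149 and 101 CPM, against 236 to 261 CPM in EO771 and 108 to 183 CPM in MC38. The gel-forming mucins Muc2, Muc5ac, Muc5b and Muc6 had too few counts to test. Msln (mesothelin), carried by mesothelium and by pancreatic cancer, stood at 205, 569.9 and 487 CPM against 0.491 to 84.9 CPM (log2 fold change 5.72 ± 0.22 (SE), adjusted p = 3.5e-10). Of the 7 mesothelial genes tested 3 were called, Msln in every refit and Cldn15 and Rspo1, both at the low end of the scale, not without tumor 1 and tumor 2 respectively, while Upk1b was at 0.0489, 0 and 0 CPM and Wt1, Upk3b and Calb2 had too few counts to test.

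The genes that drive pancreatic cancer in patients showed no common direction. Of 18 suppressors and oncogenes, all tested, 5 were called higher (against 18.8% of all genes) and 5 lower (against 7.92%), with a median of -0.04. Without tumor 2 or tumor 3 it was 3 and 2 lower. Smad4, the shared effector of TGF-beta signals that is often lost in this cancer, was 45.97, 42.5 and 35.1 CPM against 70.6 to 121 CPM (log2 fold change -1.10 ± 0.09 (SE), adjusted p = 3e-07), lower in all 3 tumors but present, with a log2 fold change of -0.99 and no call without tumor 3. Also called lower were Myc (210.1, 139 and 136 CPM, log2 fold change -1.03 ± 0.16 (SE), adjusted p = 7.7e-05), which LL2 expressed most, the cell cycle inhibitor Cdkn1a, Brca2 of DNA repair and Mtap, a neighbour of Cdkn2a. Without tumor 2 or tumor 3 neither Myc nor Mtap reached the fold (log2 fold changes -0.91 and -0.91 without tumor 3). Trp53 was 183, 141 and 141 CPM (log2 fold change -0.38, adjusted p = 0.0076). Cdkn2a, a cell cycle inhibitor lost in many tumors, was 2.44, 6.81 and 3.12 CPM within 0.249 to 7.45 CPM and passed against the mean (log2 fold change 2.07). Tgfbr2 rose (431, 631 and 569.8 CPM against 86.3 to 243 CPM, log2 fold change 1.93 ± 0.16 (SE), adjusted p = 3.8e-07), as did Rnf43 (12.99, 10.7 and 7.32 CPM, log2 fold change 3.12). Without Pan02 tumor 2 the number called lower was 3 and without tumor 3 it was 2.

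Growth factor genes that link ducts and stroma were higher in part. Of 14 EGF receptor ligands and receptors, 12 were tested and 5 called higher (against 18.8% of all genes). Egfr itself stood at 186, 93.1 and 77.1 CPM against 1.67 to 56.9 CPM (log2 fold change 3.31 ± 0.21 (SE), adjusted p = 3e-08), the ligand Tgfa at 33.1, 14.8 and 11.3 CPM against 0.149 to 6.18 CPM (log2 fold change 3.57 ± 0.36 (SE), adjusted p = 2.3e-06) and Nrg1, a ligand of Erbb3, at 26.5, 20.6 and 12.9 CPM against 0.124 to 10.9 CPM (log2 fold change 3.74 ± 0.31 (SE), adjusted p = 3.8e-07). Areg and Ereg, other ligands of Egfr, were highest in LL2 and did not pass (log2 fold changes 0.48 and -0.23). Of 14 hedgehog genes, 12 were tested, 5 called higher (against 18.8% of all genes) and Gli3 lower. The ligands Shh and Ihh had too few counts to test. Gas1, a co-receptor, stood at 1209, 513 and 261 CPM against 1.77 to 154 CPM (log2 fold change 4.45 ± 0.32 (SE), adjusted p = 9.4e-08) and Cdon, another co-receptor, at 152, 128 and 101.0 CPM against 4.71 to 88.4 CPM (log2 fold change 2.77 ± 0.25 (SE), adjusted p = 7.3e-07). Gli1, the usual readout of the pathway, was 12.1, 13.5 and 6.96 CPM with 0.393 to 28.9 CPM elsewhere (log2 fold change 1.43 ± 0.19 (SE), adjusted p = 2.1e-05), while the receptor and target Ptch1 did not reach the fold (log2 fold change 0.65). Gli3, mainly a repressor, was 15.8, 9.58 and 8.52 CPM against 37.2 to 76.1 CPM (log2 fold change -2.14 ± 0.19 (SE), adjusted p = 5.6e-07).

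**Figure D2:**
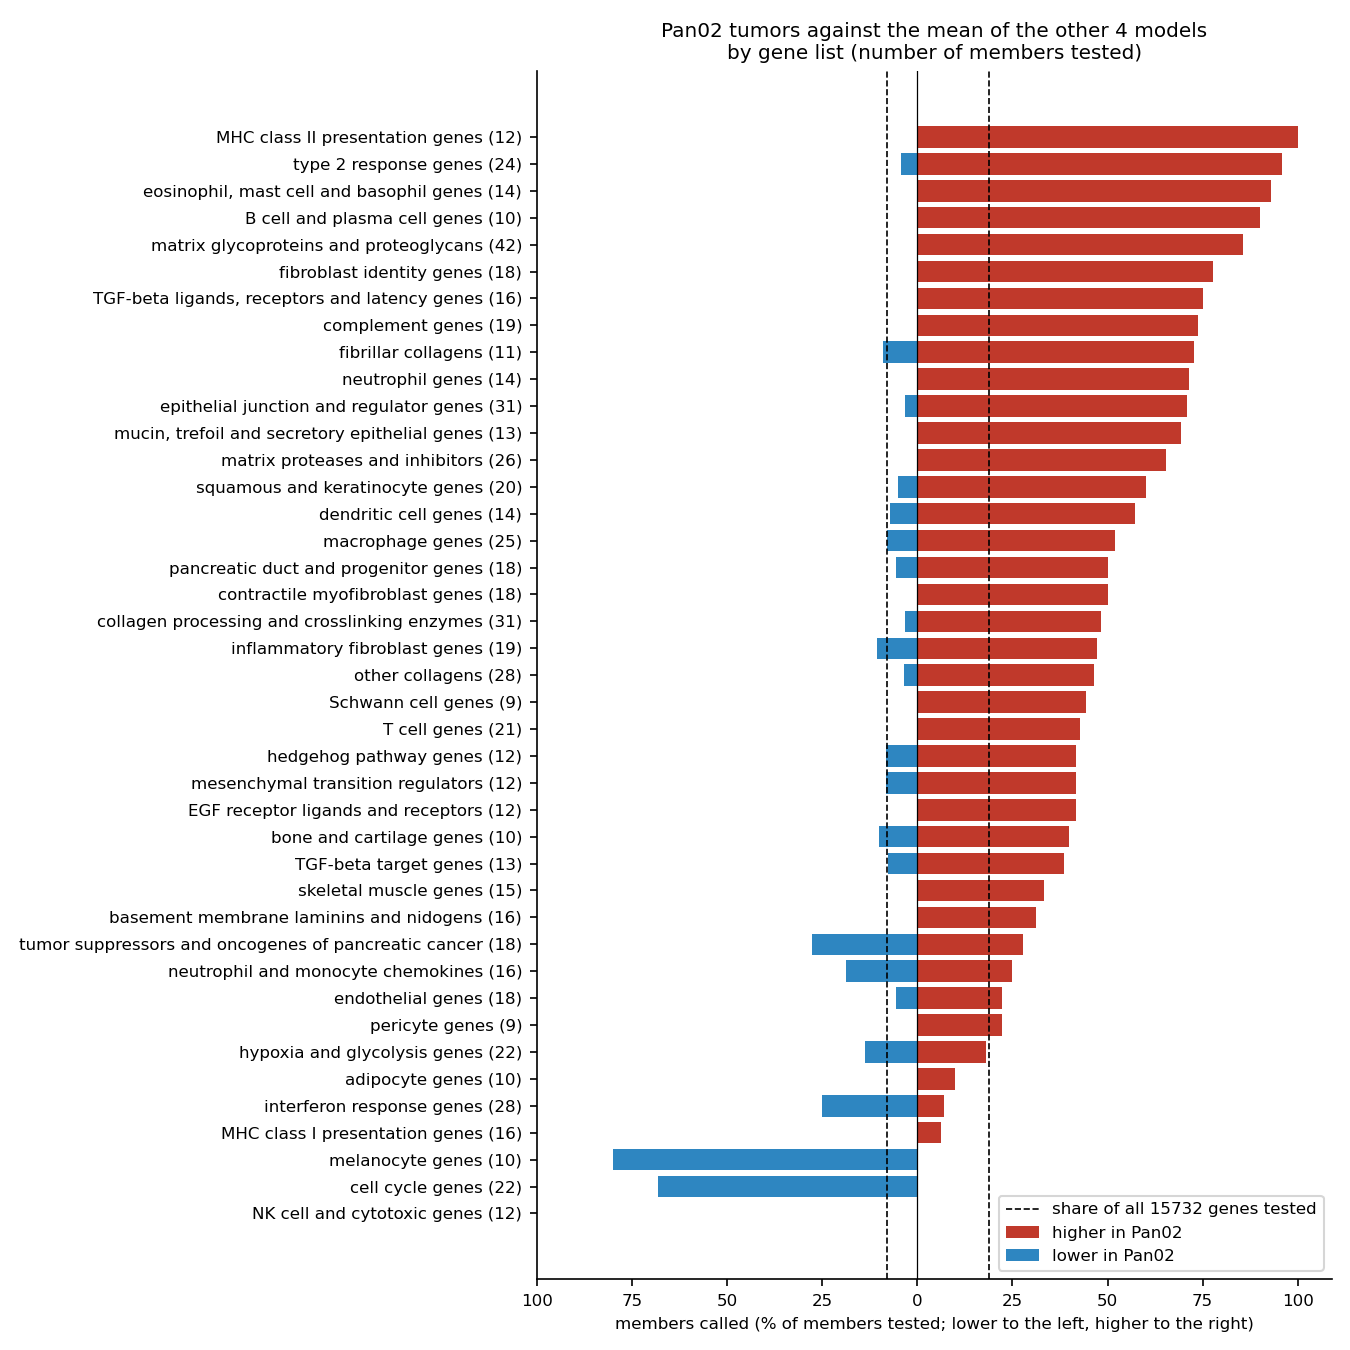
Share of the tested members of each gene list called higher (right, red) or lower (left, blue) in Pan02 than the mean of the other 4 models, with the number tested in brackets and dashed lines at 18.8% and 7.92%, the shares of all genes; lists with fewer than 9 genes tested are left out. MHC class II genes stand at 12 of 12 higher, cell cycle genes at 15 of 22 lower.

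Genes of the extracellular matrix were higher too. Counts of 44 collagen genes made up 5.87%, 5.77% and 5.27% of all counts in Pan02 tumors 1, 2 and 3, and 0.133% to 2.00% in the other 12. Col1a1 alone made up 1.92% to 2.47% of the counts, against at most 0.653%. Of 11 fibrillar collagens, 8 were called higher and Col2a1, the collagen of cartilage, lower, with a median of 2.59. Besides the type I chains, Col5a2, which sets fibril width, stood at 1394, 1118 and 1076 CPM against 18.95 to 332 CPM (log2 fold change 3.27 ± 0.32 (SE), adjusted p = 1.5e-06), and Col27a1 and Col24a1, minor fibrillar chains, showed log2 fold changes of 2.96 and 2.96 with no overlap. Col3a1 stood at 6919, 10854 and 10270.5 CPM and overlapped with LL2, which reached 8129.5 CPM. Of 33 other collagens, 28 were tested, 13 called higher and Col9a3 lower. Col12a1, which coats fibrils under tension, stood at 1919, 1152 and 1312 CPM against 8.54 to 414 CPM (log2 fold change 4.35 ± 0.28 (SE), adjusted p = 3.7e-08). Col28a1, a collagen of peripheral nerve, stood at 44.5, 55.6 and 70.2 CPM against 0.196 to 1.78 CPM (log2 fold change 6.37 ± 0.30 (SE), adjusted p = 2.3e-09). The type IV chains Col4a1 and Col4a2 of basement membranes were not called (log2 fold changes 0.18 and 0.20).

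**Figure D3:**
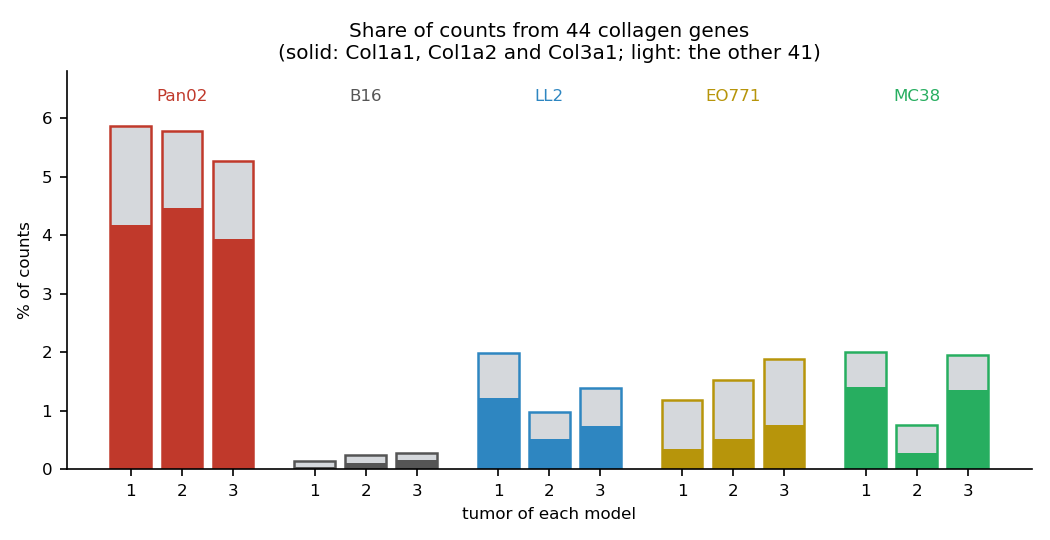
Percent of all counts that fell on 44 collagen genes in each of the 15 tumors, as bars from 0, with the part of Col1a1, Col1a2 and Col3a1 in solid color. The 3 Pan02 tumors stand at 5.27% to 5.87%, the other 12 at 0.133% to 2.00%.

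Of 42 matrix glycoproteins and proteoglycans, all of them tested, 36 were called higher, 18 of them than each model, and the median was 3.04, the highest of the matrix lists. Fn1 (fibronectin) stood at 7899, 7271 and 9153 CPM against 137 to 3369 CPM (log2 fold change 3.45 ± 0.23 (SE), adjusted p = 5.2e-08), Fbn2, a microfibril protein of fetal tissue, at 63.02, 36.5 and 43.2 CPM against 0.349 to 10.7 CPM (log2 fold change 4.52 ± 0.38 (SE), adjusted p = 3.8e-07), and Spon2 (spondin 2) at 21.9, 82.04 and 84.99 CPM against 0.0982 to 13.8 CPM (log2 fold change 4.41 ± 0.52 (SE), adjusted p = 7.8e-06). Tnn, a tenascin of bone and tumor stroma, differed widely between the 3 tumors, with 750.3, 107 and 37.7 CPM against 0.435 to 62.7 CPM (log2 fold change 5.72 ± 0.54 (SE), adjusted p = 1.2e-06). The 6 members not called were Fbln1, Fbln5, Emilin1, Comp, Tgfbi and Vcan. Vcan (versican, a large proteoglycan) was 45.1, 22.9 and 18.5 CPM with up to 282 CPM in LL2 (log2 fold change -0.25). Enzymes that fold and crosslink collagen were higher in part, 15 of 31 with Adamts14, which also trims procollagen, lower at a log2 fold change of -1.03 (-0.84 and no call without tumor 3). The crosslinkers Lox and Loxl1 stood at 463, 424 and 559.5 CPM and 724, 631 and 444 CPM, against at most 141 and 169.5 CPM, and Adamts2, which trims procollagen, at 403, 314 and 358 CPM against 11.1 to 158 CPM (log2 fold change 2.74 ± 0.29 (SE), adjusted p = 3.3e-06). The prolyl and lysyl hydroxylases P4ha1, Plod1, Plod2 and Plod3 and the collagen chaperone Serpinh1 were not called, the last with a log2 fold change of 0.09 (1261, 1045 and 1108 CPM). Of 28 matrix proteases and inhibitors, 26 were tested and 17 called higher. Mmp2 (gelatinase A) stood at 389, 1139 and 1281 CPM against 7.27 to 333 CPM (log2 fold change 3.36 ± 0.34 (SE), adjusted p = 2.4e-06) and Mmp15, a membrane protease, at 92.9, 87.4 and 81.8 CPM against 5.87 to 14.2 CPM (log2 fold change 3.17 ± 0.19 (SE), adjusted p = 1.7e-08). Of 16 basement membrane laminins and nidogens 5 were called higher (against 18.8% of all genes). The largest change was that of Npnt (nephronectin, an integrin ligand) at 172, 285 and 259.7 CPM against 1.64 to 38.1 CPM (log2 fold change 5.19 ± 0.21 (SE), adjusted p = 5.5e-10).

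Fibroblast genes were higher as well. Of 19 fibroblast identity genes, 18 were tested and 14 called higher, with a median of 2.00. Lrrc15, a surface protein of myofibroblasts in tumors, stood at 961, 527 and 360.0 CPM against 0.687 to 179.6 CPM (log2 fold change 4.61 ± 0.34 (SE), adjusted p = 1.1e-07), and Pdgfrb at 309, 230.4 and 176 CPM against 17.8 to 132 CPM. Genes of resting fibroblasts were low in tumor 1 and high in the other two: Clec3b was 4.93, 71.1 and 111 CPM and Dpt 22.3, 204 and 210.1 CPM. Contractile genes were on average highest in tumor 1, and 9 of 18 were called higher (against 18.8% of all genes). Without tumor 1 it was 7, and the median log2 fold change was 0.60 in place of 1.15. The list summed to 5621, 3044 and 2844 CPM in tumors 1, 2 and 3. It summed to 3513 to 3649 CPM in EO771, 3500 to 3847 in LL2, 2144 to 3028 in MC38 and 1472 to 1769 in B16. Tagln stood at 416, 153 and 157 CPM (log2 fold change 3.59 ± 0.33 (SE), adjusted p = 9.5e-07) and Actg2 at 43.4, 4.79 and 3.48 CPM, although 67.7% of the exon bases of Tagln are shared with other genes, Pcsk7 among them. Without tumor 1 Actg2 was not called (log2 fold change 0.33, adjusted p = 0.53). Of 19 inflammatory fibroblast genes, 9 were called higher and the chemokines Cxcl1 and Ccl2 lower, Cxcl1 not without tumor 1 (log2 fold change -1.79, adjusted p = 0.14). C3, the central complement protein, stood at 713, 3448 and 2927 CPM against 47.4 to 330.1 CPM (log2 fold change 4.15 ± 0.37 (SE), adjusted p = 6.2e-07), and Il11, a profibrotic cytokine, at 193, 13.96 and 3.78 CPM against 0.393 to 24.2 CPM (log2 fold change 3.92 ± 0.66 (SE), adjusted p = 0.00018). Without tumor 1 Il11 had a log2 fold change of 0.90 (adjusted p = 0.094). Among 16 TGF-beta ligands, receptors and latency genes, 12 were called higher and 7 than each model, with a median of 1.91. Tgfb3 stood at 211, 148 and 123 CPM against 10.03 to 78.5 CPM (log2 fold change 2.28 ± 0.17 (SE), adjusted p = 1.6e-07), while Tgfb1 was not called (log2 fold change 0.70). Ltbp1 to Ltbp4, which hold TGF-beta latent in the matrix, were all called (log2 fold changes 2.97, 3.02, 1.58 and 1.90), as was the integrin chain Itgb8, which activates it (25.5, 7.22 and 3.48 CPM against 0 to 1.49 CPM). Of 13 TGF-beta target genes, 5 were called higher (against 18.8% of all genes) and Cdkn1a lower. Pmepa1, a feedback inhibitor (428, 538 and 609 CPM against 8.15 to 84.002 CPM, log2 fold change 3.94 ± 0.24 (SE), adjusted p = 2.4e-08), and Ctgf, a matrix growth factor (295, 468 and 166 CPM against 6.21 to 142 CPM, log2 fold change 3.42 ± 0.36 (SE), adjusted p = 3.1e-06), were called, whereas Smad7, an inhibitor of the pathway (91.6, 107 and 50.9 CPM), was not, and passed without tumor 3 (log2 fold change 1.06). Vessel genes were called higher at about the share of all genes (18.8%), with 2 of 9 pericyte genes and 4 of 18 endothelial genes, and Egfl7, a secreted protein of endothelium, was called lower. Without tumor 3 it was 2 endothelial genes higher and 0 lower. Notch3, a receptor of mural cells, stood at 362, 292 and 211 CPM against 8.19 to 31.6 CPM (log2 fold change 4.01 ± 0.28 (SE), adjusted p = 6.3e-08), and Flt1 (VEGF receptor 1) stood at 136, 106 and 115 CPM against 15.8 to 42.4 CPM (log2 fold change 2.18 ± 0.15 (SE), adjusted p = 5.7e-08).

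Type 2 response genes were higher as a group, unevenly over the 3 tumors. Of 33 genes, 24 were tested and 23 called higher (against 18.8% of all genes), 12 of them than each model (against 5.96%). Il1rl1, the receptor of interleukin 33, was called lower. That call depended on the transcript, since the log2 fold change of Il1rl1 was -1.10 for the transcript with the most counts, 0.91 for the longest and -0.19 for the sum. The cytokines Il4, Il5, Il9, Il13 and Il25 had too few counts to test, whereas Il33 and Tslp were among the members called higher. Il13 stood at 0.391, 1.08 and 6.78 CPM against 0 to 0.261 CPM. Il5 stood at 0.0489, 0.8096 and 3.18 CPM against 0 to 0.188 CPM, and both were highest in tumor 3. Chil3 stood at 4.49, 25.4 and 2065 CPM against 0.687 to 10.4 CPM (log2 fold change 7.78 ± 0.95 (SE), adjusted p = 1.1e-05), Retnla at 5.37, 206 and 1204 CPM against 0.589 to 24.99 CPM (log2 fold change 6.38 ± 0.89 (SE), adjusted p = 3.6e-05), and Alox15, which marks alternatively activated macrophages and eosinophils, at 1.12, 25.8 and 85.7 CPM against 0.295 to 2.701 CPM (log2 fold change 5.23 ± 0.67 (SE), adjusted p = 1.8e-05). For each of these genes tumor 3 was highest by far and tumor 1 lay within the range of the other models. The chemokines Ccl17 and Ccl24 stood at 1.66, 22.1 and 33.3 CPM and 0.293, 15.1 and 113 CPM, against at most 4.24 and 5.16 CPM. The receptor chain Il4ra was more even, at 368, 503 and 574 CPM (log2 fold change 2.05 ± 0.19 (SE), adjusted p = 9.5e-07). Without tumor 3, 21 members were still called higher, and without tumor 1, 25. The count higher than in each model moved more, to 6 without tumor 3 and 22 without tumor 1.

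Chil3 and Chil4 are neighbouring copies, and their reads can be confused. Of the 50-base words of annotated Chil4 transcripts, 9.95% also occur in Chil3, and 16.9% of those of Chil3 occur in Chil4. Per length, Chil4 stood at 53.0, 612 and 1594 RPKM in tumors 1, 2 and 3, and Chil3 at 2.95, 16.6 and 1353. Chil4 was thus far above Chil3 in tumors 1 and 2 and close to it in tumor 3. The promoters of both, and of 2 other members that rose, Retnla and Ccl17, are shown because these genes moved together and are known as genes of the type 2 response. Each runs from 250 bases before to 50 after the start given by RefSeq on GRCm38.p6, which has the coordinates of mm10. Capitals mark every match, on either strand, of TATAAA or of TTCNNNNGAA, a spaced palindrome that STAT6 binds.
Chil4, chr3:106219430-106219729, minus strand: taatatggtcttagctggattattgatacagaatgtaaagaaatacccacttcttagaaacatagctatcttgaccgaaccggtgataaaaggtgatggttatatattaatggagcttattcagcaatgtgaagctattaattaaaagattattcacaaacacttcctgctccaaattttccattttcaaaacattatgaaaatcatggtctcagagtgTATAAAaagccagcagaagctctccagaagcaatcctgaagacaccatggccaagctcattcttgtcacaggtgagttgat
Chil3, chr3:106167515-106167814, minus strand: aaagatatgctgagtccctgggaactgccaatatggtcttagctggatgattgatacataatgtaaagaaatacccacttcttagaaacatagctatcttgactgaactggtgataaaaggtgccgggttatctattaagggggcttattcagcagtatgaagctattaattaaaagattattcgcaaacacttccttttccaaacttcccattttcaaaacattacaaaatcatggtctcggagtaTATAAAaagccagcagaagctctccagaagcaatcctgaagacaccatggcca
Retnla, chr16:48842359-48842658, plus strand: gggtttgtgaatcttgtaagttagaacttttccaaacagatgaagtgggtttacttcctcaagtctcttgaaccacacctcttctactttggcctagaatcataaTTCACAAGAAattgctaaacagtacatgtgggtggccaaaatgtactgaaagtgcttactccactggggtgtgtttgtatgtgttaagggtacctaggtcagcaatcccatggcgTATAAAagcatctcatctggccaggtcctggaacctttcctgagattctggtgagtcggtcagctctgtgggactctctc
Ccl17, chr8:94810203-94810502, plus strand: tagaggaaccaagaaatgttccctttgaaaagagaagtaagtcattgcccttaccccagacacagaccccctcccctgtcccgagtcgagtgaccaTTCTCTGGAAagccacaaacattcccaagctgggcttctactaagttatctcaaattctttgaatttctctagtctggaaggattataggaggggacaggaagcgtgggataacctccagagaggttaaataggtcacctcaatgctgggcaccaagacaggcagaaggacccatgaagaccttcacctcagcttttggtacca
When aligned, the Chil4 and Chil3 windows share 251 identical bases, which is 83.7% of the 300-base window. Each holds 1 TATAAA and neither holds TTCNNNNGAA. Other spacings between TTC and GAA were not searched. The TATAAA begins at -31 from the listed start in Chil4 and at -3 in Chil3, so the 2 windows are offset and do not cover the same stretch. Retnla holds 1 of each and Ccl17 holds 1 TTCNNNNGAA, and the 2 motifs do not overlap. Of the 24 type 2 genes tested, 17 have a promoter in the RefSeq table, of which 4 hold TTCNNNNGAA (Il33, Retnla, Ccl17 and Pdcd1lg2) and 8 hold TATAAA. Of all 27025 symbols listed there, 8.01% hold the first motif and 15.7% hold TATAAA. A match is a description of letters and not a bound site.

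Eosinophil, mast cell and basophil genes rose with 13 of the 14 tested, from a list of 19, with a median of 3.54. Tpsb2, a mast cell tryptase, stood at 192, 187 and 370.1 CPM against 0.295 to 125 CPM (log2 fold change 4.47 ± 0.47 (SE), adjusted p = 2.9e-06) and Cma1, a chymase, at 63.8, 62.1 and 139 CPM against 0.393 to 82.3 CPM (log2 fold change 3.61 ± 0.46 (SE), adjusted p = 1.8e-05). LL2 tumors were the next highest for both. Siglecf, carried by eosinophils, stood at 2.101, 6.34 and 10.1 CPM against 0.0622 to 0.594 CPM (log2 fold change 4.15 ± 0.43 (SE), adjusted p = 2.4e-06), while the granule genes Epx and Prg2 had too few counts to test, with Prg2 at 0.0977, 1.21 and 13.1 CPM. Of 25 macrophage genes 13 were called higher and Marco and Gpnmb lower, and without tumor 3 only 7 were. Apoe stood at 3376, 6547 and 10601 CPM against 782 to 3334 CPM (log2 fold change 2.07 ± 0.30 (SE), adjusted p = 4.6e-05), Cd163 at 13.2, 73.2 and 165 CPM (log2 fold change 3.43 ± 0.55 (SE), adjusted p = 0.00012) and Trem2 at 47.4, 84.7 and 224 CPM (log2 fold change 1.77 ± 0.32 (SE), adjusted p = 0.00031), all highest in tumor 3, without which Trem2 fell short of the fold (log2 fold change 0.93). The general macrophage genes Cd68, Fcgr1 and Mertk were not called. Gpnmb, also a gene of pigment cells, was 51.9, 73.1 and 112 CPM, with up to 8779 CPM in B16. Complement genes were called higher for 14 of 19, and for 8 without tumor 3.

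Genes of antigen presentation to CD4 T cells were higher. All 12 MHC class II genes were called, with a median of 1.80, and it was 9 without tumor 2, 11 without tumor 3 and 4 when tested against a fold of 2 with glmTreat. Against each model 5 of them were called, 7 without tumor 1 and 1 without tumor 2 or tumor 3. H2-Ab1 stood at 773, 2409 and 1991 CPM against 114 to 1081 CPM (log2 fold change 2.04 ± 0.45 (SE), adjusted p = 0.0015), and H2-DMb2, a chain of the complex that edits its peptides, at 5.67, 23.7 and 9.54 CPM against 0.959 to 3.44 CPM (log2 fold change 3.10 ± 0.35 (SE), adjusted p = 5.6e-06). For most of them tumor 1 lay within the range of the others. MHC class I genes did not share this: 1 of 16 was called, the nonclassical H2-T23 (282, 697 and 520.1 CPM, log2 fold change 1.81), and the median was 0.10. Of 28 interferon response genes 2 were called higher and 7 lower, with a median of -0.11, and Rsad2 stood at 7.57, 19.1 and 12.5 CPM against 12.4 to 638 CPM (log2 fold change -2.79 ± 0.46 (SE), adjusted p = 0.00016). Their direction changed with the tumors included: without tumor 1 it was 4 higher and 2 lower with a median of 0.08, without tumor 2 it was 0 higher and 9 lower with a median of -0.54, and without LL2 tumor 3 it was 5 higher. Of 21 T cell genes 9 were called higher (against 18.8% of all genes), 3 without tumor 2, 14 without LL2 tumor 3 and 1 with glmTreat. Higher than each model were 0. Among the 12 not called were Cd3d, Cd3e, Cd3g, Cd247, Cd8a, Cd8b1, Lck and Zap70. The checkpoint receptors Ctla4 and Tigit stood at 2.198, 23.1 and 7.02 CPM and 6.01, 26.8 and 20.9 CPM, highest in tumor 2, without which Ctla4 was not called (log2 fold change 0.44, adjusted p = 0.53). NK cell and cytotoxic genes gave 0 calls among 12 tested by edgeR, with 2 at an unadjusted p under 0.05, and 1 lower by DESeq2. With the replicate block or without LL2 tumor 1 edgeR called 2 of them lower, without LL2 tumor 3 it called 2 higher, and without Pan02 tumor 3 it called 1 higher. B cell and plasma cell genes summed to 20.5, 271 and 224 CPM, with 3.91 to 30.7 CPM elsewhere, so tumor 1 lay within the range of the others, and 9 of 10 tested were called higher. Jchain, which joins secreted IgA and IgM, stood at 9.62, 197 and 168 CPM against 0.104 to 6.16 CPM (log2 fold change 5.99 ± 0.58 (SE), adjusted p = 1.4e-06) and Pou2af1, a B cell coactivator, at 1.03, 14.98 and 7.503 CPM against 0.0982 to 1.89 CPM (log2 fold change 4.50 ± 0.53 (SE), adjusted p = 7.4e-06). Dendritic cell genes were called higher for 8 of 14, and for 4 without tumor 2, and Fscn1, a bundling protein of mature dendritic cells and of many cancer lines, was lower (190.1, 259.7 and 150.1 CPM against 422 to 987 CPM, log2 fold change -1.65 ± 0.19 (SE), adjusted p = 8.1e-06). Neutrophil genes were higher for 10 of 14 tested, but only 1 against each model, and LL2 was the highest other model for all 14. Of 16 neutrophil and monocyte chemokines 4 were higher (against 18.8% of all genes), 7 without tumor 1. Lower were 3 (against 7.92%), 1 without tumor 3 and 0 with glmTreat. Cxcl5 stood at 74.1, 37.8 and 23.5 CPM (log2 fold change 3.98 ± 0.44 (SE), adjusted p = 4.6e-06).

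The genes lower in Pan02 included the cell cycle. Of 22 cell cycle genes 15 were called lower, 8 of them than each model (against 1.50% of all genes), and all 3 Pan02 tumors lay below all 12 others for 15 of the 22, against 9.52% of all genes; the median was -1.17. Bub1, a spindle checkpoint kinase, stood at 22.4, 12.5 and 11.9 CPM against 50.9 to 91.3 CPM (log2 fold change -2.06 ± 0.21 (SE), adjusted p = 2.8e-06), Ccne1, the cyclin of S phase entry, at 12.3, 7.22 and 8.34 CPM against 22.2 to 104 CPM (log2 fold change -2.26 ± 0.17 (SE), adjusted p = 1.8e-07), and Mcm2, of the replication helicase, at 121, 100.7 and 76.5 CPM against 192 to 830.0 CPM (log2 fold change -1.63 ± 0.15 (SE), adjusted p = 9.3e-07). The 7 not called were Mki67, Top2a, Cdc20, Plk1, Pcna, E2f1 and Tyms. Among them Mki67, the common proliferation marker, stood at 144, 116 and 85.6 CPM within 68.6 to 356 CPM (log2 fold change -0.46). The number called lower was 12 without tumor 2 or without tumor 3, and 8 with glmTreat. Tumor 1 was highest of the 3 for most of the cell cycle genes. Of 180 genes lower than in each model, below all 12 tumors and at 10 CPM or more in the others, the 12 with the largest change were Zic2, Dlx2, Nppb, Clstn3, Hmga2, Kcnq5, Ccdc40, Casc4, Chic1, Dclk2, Smoc1 and Bsn. Zic2, a zinc finger factor of the early forebrain, stood at 0.147, 0.5397 and 0.9004 CPM against 25.99 to 60.7 CPM (log2 fold change -6.17 ± 0.34 (SE), adjusted p = 1e-08) and Dlx2, a homeobox factor of forebrain and neural crest, at 0.0489, 0.202 and 0.4802 CPM against 0.884 to 51.6 CPM (log2 fold change -5.48 ± 0.37 (SE), adjusted p = 5.1e-08). Hmga2, a chromatin protein of embryonic and cancer cells, was 1.76, 1.35 and 2.94 CPM against 7.56 to 579 CPM, with LL2 highest (log2 fold change -5.13 ± 0.27 (SE), adjusted p = 7.3e-09). Bsn (bassoon, a scaffold of synapses) was 2.88, 2.36 and 1.86 CPM against the narrow 20.998 to 33.2 CPM (log2 fold change -3.46 ± 0.16 (SE), adjusted p = 1.5e-09). Melanocyte genes gave 8 of 10 lower against the mean of the other models, and their sum was 28.8, 39.0 and 63.4 CPM in Pan02, 24031 to 29947 CPM in B16 and 19.2 to 44.6 CPM in the other 9. Of 22 hypoxia and glycolysis genes 4 were called higher, about the share of all genes (18.8%), and 3 lower (against 7.92% of all genes). Without tumor 1 it was 2 higher and 6 lower, and with total-count scaling 5 were lower. Ndrg1 was highest in tumor 1 (1838, 692 and 626 CPM, log2 fold change 2.08 ± 0.30 (SE), adjusted p = 5.2e-05).

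RNA of other tissues was present in part. Skeletal muscle genes summed to 1218, 309.5 and 65.6 CPM in Pan02 tumors 1, 2 and 3, to at most 16.05 CPM in B16 and EO771, to 7.81 to 1599.97 CPM in LL2 and to 555 to 4790.5 CPM in MC38. Of the 15 genes 5 were called higher (against 18.8% of all genes). Without tumor 1 edgeR called 0 of them, with 0 at an unadjusted p under 0.05, and DESeq2, which was run on all tumors, called 8. Without Pan02 tumor 3, LL2 tumor 1 or 3, or MC38 tumor 3 it was 10. Muscle RNA was highest in the same Pan02 tumor as the contractile genes, and its part in their values was not tested. Adipocyte genes lay inside the range of the others (112 to 142 CPM in sum against 44.5 to 197 CPM), and of the 10 tested Plin4 was called higher (25.6, 23.9 and 27.7 CPM, log2 fold change 3.86). Without LL2 tumor 3 it was 4 genes, and with the replicate block 1 gene was called lower. Schwann cell genes were called higher for 4 of 9 (against 18.8% of all genes), and for 7 without tumor 1. Mal, a protein of myelin membranes, stood at 7.47, 5.94 and 6.96 CPM against 0 to 0.867 CPM (log2 fold change 5.20 ± 0.40 (SE), adjusted p = 1.7e-07). Of 10 bone and cartilage genes tested, 4 were higher (against 18.8% of all genes), and 2 without tumor 1. In that tumor Alpl, the phosphatase of mineralizing cells, reached 59.2 CPM, with 3.91 and 1.32 CPM in the other 2. Without tumor 1 Alpl was not called (log2 fold change 1.08, adjusted p = 0.093).

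The 3 Pan02 tumors differed among themselves by list. Averaged as log2(CPM + 1) over its tested members, the type 2 list stood at 3.88, 5.90 and 7.12 in tumors 1, 2 and 3, with 1.94 to 3.91 in the other 12, so tumor 1 lay within their range. The macrophage list stood at 5.42, 6.54 and 6.97 (others 4.61 to 6.39) and the T cell list at 2.40, 4.22 and 3.48 (others 1.60 to 3.43). The contractile list was highest in tumor 1, at 6.76, 5.70 and 5.52 (others 3.99 to 5.71). In contrast, the epithelial list was even at 3.87, 4.07 and 3.80 (others 1.00 to 2.30), as was the list of matrix glycoproteins at 6.97, 7.19 and 6.95 (others 2.83 to 5.85). Tumor 1 had the highest value for 42.6% of the 585 genes higher than in each model, tumor 2 for 34.9% and tumor 3 for 22.6%. With 3 tumors this order carries no test.

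**Figure D4:**
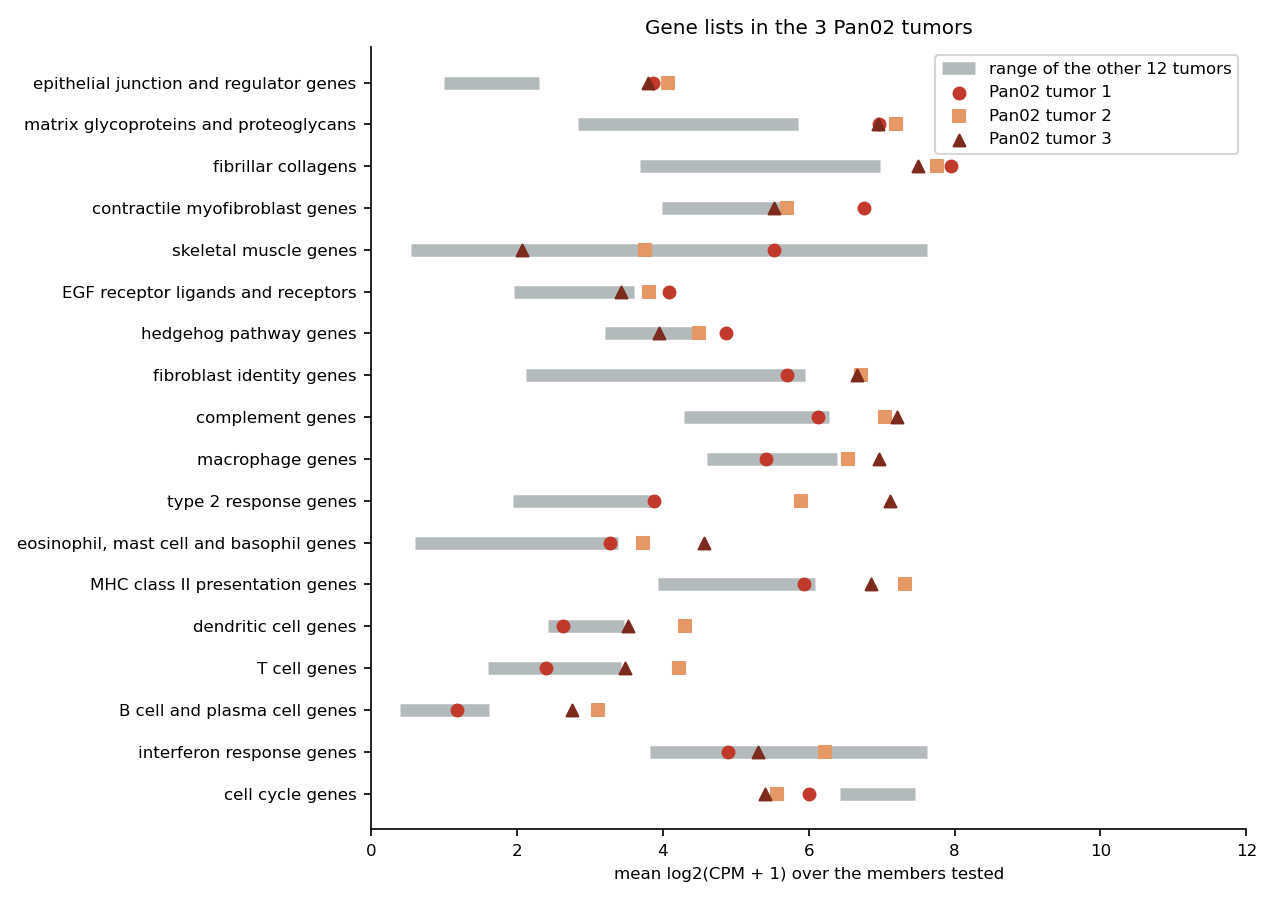
Mean log2(CPM + 1) over the tested members of 18 gene lists in Pan02 tumors 1 (circle), 2 (square) and 3 (triangle), with grey bars from the lowest to the highest of the other 12 tumors. Epithelial and matrix lists sit together outside the bars, while type 2, macrophage, T cell and B cell lists spread over the 3 tumors, with tumor 1 lowest.

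FAP+ CD45- cells sorted from Pan02 tumors also carried RNA of the epithelial genes. In the 2 Pan02 CAF libraries, whose values are RPKM and carry no test, Pdx1 stood at 34.2 and 35.3 RPKM and at 0 to 0.258 RPKM in the 6 CAF libraries of the other models. Krt18 stood at 349 and 483 RPKM against 0.116 to 100.7 RPKM, Krt19 at 82.4 and 81.4 RPKM against 0.768 to 15.9 RPKM, Slurp1 at 17.2 and 36.7 RPKM against 0 to 0.582 RPKM, and Igf2 at 356 and 415 RPKM against 0.146 to 5.51 RPKM. For all 12 of the genes with the largest rise both Pan02 CAF libraries lay above the other 6. Of the 585 genes higher in Pan02 tumors than in each model this held for 394 (67.4%), against 18.4% of the 15731 tested genes with a CAF value. The sort was on FAP, and markers of epithelium and of fibroblasts were both present: Col1a1 stood at 1535 and 795 RPKM within 467 to 3773 RPKM. Which cells gave the epithelial RNA was not tested. Of the genes of alternatively activated macrophages, Retnla was 0.052 and 0.094 RPKM against 0 to 3.33 RPKM and Alox15 0 and 0.035 RPKM, whereas Chil3 stood at 1.25 and 4.14 RPKM against 0 to 0.126 RPKM, Chil4 at 23.1 and 45.5 RPKM against 0 to 0.036 RPKM and Cd74, the MHC class II chaperone, at 556 and 246 RPKM against 1.06 to 69.1 RPKM. Hmga2, low in Pan02 tumors, was 0.033 and 0.068 RPKM in Pan02 CAFs and 2.96 to 71.6 RPKM in the others.

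**Figure D5:**
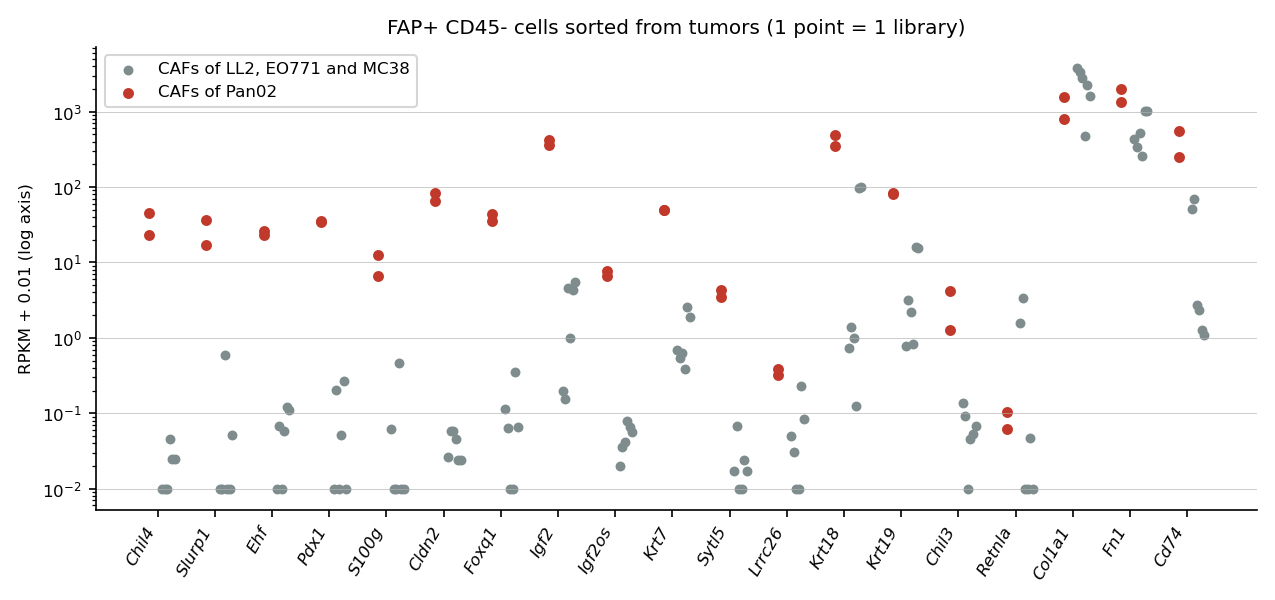
RPKM plus 0.01 on a log axis in the 2 Pan02 CAF libraries (red) and the 6 of LL2, EO771 and MC38 (grey), for the 12 genes with the largest rise in Pan02 tumors and 7 others named in the text. The red points of the first 12 genes lie above all grey points, whereas those of Col1a1 lie within them.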

How the data were processed

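Whole tumors of 5 subcutaneous models (3 each) and sorted CAFs of 4 of them were used here, sequenced as poly(A) RNA without strand. The study's model CT26 was not analysed here. Per the submitters' processing notes, STAR 2.5.0c, HOMER, DESeq2 and the build mm10 were used, and HOMER counted over the exons of RefSeq transcripts on both strands. The tumor values deposited by the authors are expected counts per transcript, not normalized, of which 38.2% carry a fraction, and they were rounded to whole numbers. The CAF values deposited by the authors are RPKM per transcript, from which no test was made. Not used were 5 columns of values named for CT26, which match no sample here, and 2 transcripts without a gene name.

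For each of 24940 symbols the transcript with the largest mean count was kept, so a switch of transcript can appear as a change of the gene. Genes were filtered with filterByExpr, scaled by TMM and tested in edgeR 4.0.16 (R 4.3.3) with 1 term per model over the 15 tumors, and Pan02 was set against the mean of the other 4 models and against each. DESeq2 1.42.0 was an alternative. The steps were tested on simulated data. Levels between genes were compared as RPKM only. Values under 1 CPM rest on few counts.

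Named genes were the 4 markers, the 12 largest changes in each direction (called against each model, no overlap, at least 10 CPM in the higher side), and in each of 44 lists up to 4 called genes with the largest change and, for short lists, those first looked for. Other list members, and all genes of the closing section, were named after their values had been seen. The markers and lists were chosen with earlier results of these data known. Chil4 and other genes of the type 2 list therefore give no independent support. Replicates of a model differed beyond counting noise (lowest chi-square per degree of freedom 5.12).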

Additional observations from a re-analysis of the deposited data

How the results depend on the processing

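Without the fold threshold 5114 genes were higher and 4424 lower than the mean of the other models, and 1357 higher and 1407 lower than each of them, without the excess of higher genes seen with it (938 and 236). Tested against a fold of 2 with glmTreat it was 1865 and 589, with 486 higher and 78 lower than each. Scaling by total counts moved the median log2 fold change of all genes by -0.11 and the share of calls that were higher from 70.4% to 63.0%, while the share was 53.6% without the fold threshold and 76.0% with glmTreat. With 1 tumor left out at a time, 2816 to 3176 genes were higher and 1214 to 1505 lower than the mean, and 858 to 1102 higher and 220 to 360 lower than each. The 360 came without Pan02 tumor 1. The cause was not tested for any of these. Fits with the replicate block gave 2882 higher and 1264 lower than the mean and 904 and 241 against each. The labels do not say what the replicate numbers stand for. Deviations of same-numbered tumors of 2 models correlated at -0.165 to 0.263 (median 0.029 over 30 pairs). Of 15 tumors, 8 correlated best with their own number. Whether same-numbered tumors shared a batch was not tested. Of 256 called genes that were named or followed by rule, 186 kept call and direction in all 25 alternatives, and the sign of the called value of Il1rl1 reversed with the longest transcript (0.91). Of 1750 alternative counts of list members called, 141 moved by more than 1.5 times, 71 of them with 1 tumor left out and 30 with glmTreat. The 3 tumors per model, 1 fragment each, limit what can be told of the spread within Pan02.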

Other observations

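The genes in these paragraphs were chosen after their values had been seen. Wnt signals maintain stem cells of gut epithelium and drive their own inhibitors, and genes of both kinds, ligands and targets, were called higher in Pan02. The ligand Wnt10a stood at 131, 215 and 148 CPM against 0.249 to 12.7 CPM (log2 fold change 5.88 ± 0.22 (SE), adjusted p = 3.4e-10), Wnt4 at 39.1, 24.2 and 12.5 CPM against 0 to 0.8901 CPM (log2 fold change 6.19 ± 0.36 (SE), adjusted p = 1.6e-08) and Wnt2b at 45.4, 39.5 and 30.4 CPM against 0.687 to 12.1 CPM (log2 fold change 4.16 ± 0.26 (SE), adjusted p = 3e-08). All 3 lay above every other tumor. Of 14 target and feedback genes, 11 were tested and 8 called higher (against 18.8% of all genes), with a median log2 fold change of 2.16. As this list and those below were chosen with values seen, their counts are a description only. Notum, a secreted enzyme that inactivates Wnt, stood at 138, 240.0 and 95.3 CPM against 0.289 to 3.33 CPM (log2 fold change 7.58 ± 0.24 (SE), adjusted p = 1e-10), although 36.7% of its exon bases are shared with another gene. Lgr5, the receptor of R-spondin on intestinal stem cells, stood at 58.97, 59.2 and 24.9 CPM against 0.149 to 1.297 CPM (log2 fold change 6.40 ± 0.30 (SE), adjusted p = 2.2e-09), and Nkd1, an intracellular inhibitor, at 16.95, 20.3 and 13.6 CPM against 0.0982 to 5.66 CPM (log2 fold change 4.31 ± 0.36 (SE), adjusted p = 3.7e-07). The target most often read out, Axin2, overlapped with B16 (16.8, 16.7 and 19.6 CPM against 1.41 to 49.8 CPM, log2 fold change 1.59 ± 0.24 (SE), adjusted p = 6.7e-05), and Lef1 and Znrf3 were not called (log2 fold changes 0.46 and 0.30).

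Of 19 genes of the insulin-like growth factor axis tested, 11 were called higher (against 18.8% of all genes) and 3 lower (against 7.92%). Beside Igf2, the binding protein Igfbp7 stood at 1128, 773 and 567 CPM against 52.8 to 265 CPM (log2 fold change 2.56 ± 0.27 (SE), adjusted p = 2.9e-06) and Pappa, a protease that frees the growth factor from binding proteins, at 31.9, 12.3 and 8.88 CPM against 0.0622 to 3.22 CPM (log2 fold change 4.79 ± 0.45 (SE), adjusted p = 1e-06). Igfbp4, a substrate of Pappa, was 157, 423 and 278 CPM against 420.2 to 4249 CPM (log2 fold change -1.90 ± 0.27 (SE), adjusted p = 4.1e-05), in the other direction. H19, the noncoding RNA beside Igf2 that is expressed from the other parental copy, was 70.2, 46.4 and 21.6 CPM and overlapped with 0.982 to 378 CPM (log2 fold change 1.35 ± 0.50 (SE), adjusted p = 0.031). The receptor Igf2r, which removes the ligand, was not called (log2 fold change 0.01).

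Of 7 regulators and markers of intestine and duct, 5 were tested. Of these, 4 were called higher (against 18.8% of all genes) and Vil1 lower (against 7.92%). Cancer and host cells were not separated in these whole tumors. Cdx2, the factor of intestinal identity, stood at 21.5, 14.8 and 11.3 CPM against 0 to 3.07 CPM (log2 fold change 6.25 ± 0.42 (SE), adjusted p = 5.2e-08), Onecut2 at 41.96, 64.6 and 41.4 CPM against 0 to 7.17 CPM (log2 fold change 5.79 ± 0.22 (SE), adjusted p = 3.5e-10) and Bmp4, a growth factor of the gut wall, at 143, 161 and 71.7 CPM against 0.318 to 2.11 CPM (log2 fold change 7.40 ± 0.24 (SE), adjusted p = 1.1e-10). Vil1, the brush border protein, was 0.147, 0.2699 and 0.3001 CPM (log2 fold change -1.72 ± 0.32 (SE), adjusted p = 0.00037). The mast cell proteases of mucosa, Mcpt1 and Mcpt2, stood at 13.97, 15.9 and 245 CPM and at 78.8, 61.9 and 178 CPM, against at most 4.53 and 9.06 CPM in the other 12 tumors, which were injected in the same place. Their log2 fold changes were 7.89 and 6.61 (adjusted p = 8.9e-07 and 4.5e-08), and DESeq2 called 1 of them. In the Pan02 CAF libraries Mcpt1 was 0.242 and 0.192 RPKM.

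By chromosome, the median log2 fold change of tested genes was 0.33 on chromosome 7, 0.29 on chromosome 19, 0.26 on chromosome 15 and -0.24 on chromosome 6, and no other chromosome lay outside -0.14 to 0.19. Against the single models the median on chromosome 7 was 0.23 to 0.37, on chromosome 19 it was 0.02 (LL2) to 0.48 (B16), on chromosome 15 it was 0.12 (LL2) to 0.50 (MC38), and on chromosome 6 it was -0.62 (B16) to -0.05 (MC38). On chromosome 15, 26.1% of tested genes were called higher, and on chromosome 6, 16.9% were called lower.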
